A study of Mus musculus with 41 samples.

Results

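Sites of Flag-LSD1c, an epitope-tagged form of the histone demethylase LSD1, were compared between depolarized and resting mouse cortical neurons. The members were all Flag-LSD1c sites on chromosomes 1 to 19 that did not overlap a peak of every one of the 8 antibody targets in the series. They were 9121 of the 488881 peaks in the 27 deposited lists: 5366 of 5480 sites at KCl 1 h and 3755 of 3922 sites at KCl 0 h. A site was called kept when a site of the other time lay within 1 kb, new when it was listed at KCl 1 h with no such neighbour, and lost when it was listed at KCl 0 h with none.

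The neurons were primary cortical cultures at 10 days in vitro, labelled R26/LSD1c and precipitated with the M2 antibody against the Flag tag, after 1 h in 55 mM KCl or at 0 h. The histone marks and Pol II were measured in other cultures, labelled LSD1n WT, at the same KCl times, and so they describe the place of a site and not the tagged neurons themselves. LSD1 itself was precipitated from wild type neurons, and a Flag-tagged neuronal isoform from neurons labelled R26/LSD1n, both at KCl 1 h and 0 h. The labels say neither how the tagged protein is expressed nor whether the untagged protein is still present, and no mm9 annotation was used here, so neuronal and glial markers could not be checked. These groups hold 1 library each, except H4K20me1 in LSD1n WT at KCl 1 h with 2 lists. No difference between groups could therefore be tested. Ranges in brackets are exact Clopper-Pearson intervals at 95%, which hold counting error alone, and intervals of differences were combined from them.

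LSD1, the product of Kdm1a, takes methyl groups off mono- and dimethylated lysine 4 of histone H3, mostly as part of a repressive complex with CoREST and histone deacetylases. H3K4me2 marks promoters and enhancers, H3K4me1 is the more typical mark of enhancers and of the flanks of promoters, and Pol II piles up near active gene starts. Neurons also make LSD1n, a splice form with an extra microexon, which the title of the series names as a demethylase of H4K20. LSD1c is the tagged form set beside it. Raised extracellular KCl depolarizes neurons and opens calcium channels, which starts activity-dependent transcription within minutes.

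The depolarized library gave the longer list from fewer reads. There were 5366 sites at KCl 1 h and 3755 at KCl 0 h, a ratio of 1.43 (exact conditional Poisson interval 1.37 to 1.49) and a log2 ratio of 0.52. The library held 19610076 tags at KCl 1 h and 27416097 at KCl 0 h, and 0.431% of tags lay in sites at KCl 1 h, against 0.257% at KCl 0 h. A site needed 13 tags at KCl 1 h and 15 at KCl 0 h, and the mean site held 15.4 tags at KCl 1 h and 17.9 at KCl 0 h. The mean site thus held 1.19 times the tags the caller required at KCl 1 h and 1.20 times at KCl 0 h. With tags in sites in place of their number the log2 ratio was 0.27, and with the share of tags in sites it was 0.75. Both libraries have the same title prefix.

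In the whole lists, most sites of the resting list had a neighbour at KCl 1 h, and most sites of the depolarized list were new. Of the 5366 sites at KCl 1 h, 3103 were new and 2263 were kept. Of the 3755 sites at KCl 0 h, 1559 were lost and 2196 were kept. The share of new sites was 57.8% (56.5 to 59.2), against 56.9% in the whole deposited list with nothing left out. The share of lost sites was 41.5% (39.9 to 43.1), and it was also 41.5% in the whole deposited list. When both lists were cut to the same length, 44.8% of the sites at KCl 1 h and 44.5% of those at KCl 0 h were kept, so that most sites of either list then had no neighbour. Lists of equal length give nearly equal shares by construction. The kept sites differ by a few in number between the lists because several sites of 1 list can share a neighbour: the 2263 sites at KCl 1 h had 2131 different nearest sites at KCl 0 h.

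Sites were either close to a site of the other time or far from one. With a limit of 500 bp, 40.2% of the sites at KCl 1 h and 56.1% of those at KCl 0 h had a neighbour. With 5 kb in place of 1 kb the kept share moved only to 42.9% at KCl 1 h and to 59.3% at KCl 0 h. At 100 kb it reached 70.8% at KCl 1 h and 82.5% at KCl 0 h. Few new or lost sites therefore had a counterpart between 1 and 5 kb away.

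Kept sites were seldom called at the same base. The centres of the 2263 pairs lay a median of 178 bp apart, with quartiles of 73 and 343 bp, and 10 pairs had the same centre. Of the pairs, 33.1% were within 100 bp and 54.3% within 200 bp, the size of a site. Requiring the sites to overlap would therefore have kept only 22.9% of the list at KCl 1 h and 32.7% at KCl 0 h. The plot of displacement shows fewer pairs at larger distances.

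**Figure D1:**
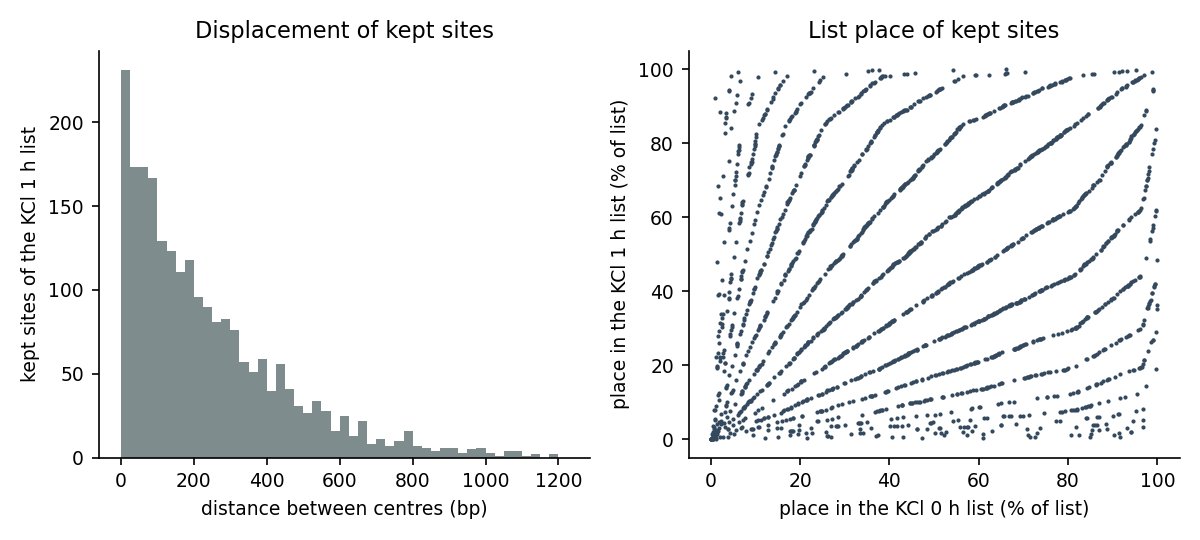
Left, the number of kept sites of the KCl 1 h list by the distance in bp between their centre and that of the nearest KCl 0 h site; the median was 178 bp. Right, each pair's place in the KCl 1 h list against its place in the KCl 0 h list, both as a percentage of the list with the top of the list at 0; the bands come from runs of sites that stand in genome order at the same level of a list.

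The deposited score is 1 for every site, so the order of the list was the only sign of strength, and it is a coarse one. Both lists broke into runs inside which the sites stood in genome order, 52 runs at KCl 1 h and 65 at KCl 0 h. The longest run held 1213 sites at KCl 1 h and 951 at KCl 0 h, and runs of at least 100 sites held 95.4% of the list at KCl 1 h and 90.6% at KCl 0 h. The files do not state by what the sites were sorted. Genome order within a run is what ties would give, so places within a run were taken to carry no order of strength and the runs were used as levels. This reading was made after the data were seen, and the values by level rest on it.

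The kept share was highest at the top of both lists and lower towards the bottom, though not in every run. Above the first run of 100 sites, 64.2% (56.6 to 71.3) of 176 sites at KCl 1 h were kept, and 70.7% (64.7 to 76.1) of 259 sites at KCl 0 h. In the longest run, 36.7% (34.0 to 39.5) of 1207 sites were kept at KCl 1 h and 52.9% (49.6 to 56.1) of 940 sites at KCl 0 h. In 5 equal parts of the list by order, the kept share at KCl 1 h was 51.4%, 47.6%, 38.8%, 36.8% and 36.3% from top to bottom. For the KCl 0 h list it was 67.1%, 62.6%, 59.1%, 52.6% and 51.0%. Of the first 100 sites, 65 at KCl 1 h and 77 at KCl 0 h were kept. The equal parts cut through runs by genome position.

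**Figure D2:**
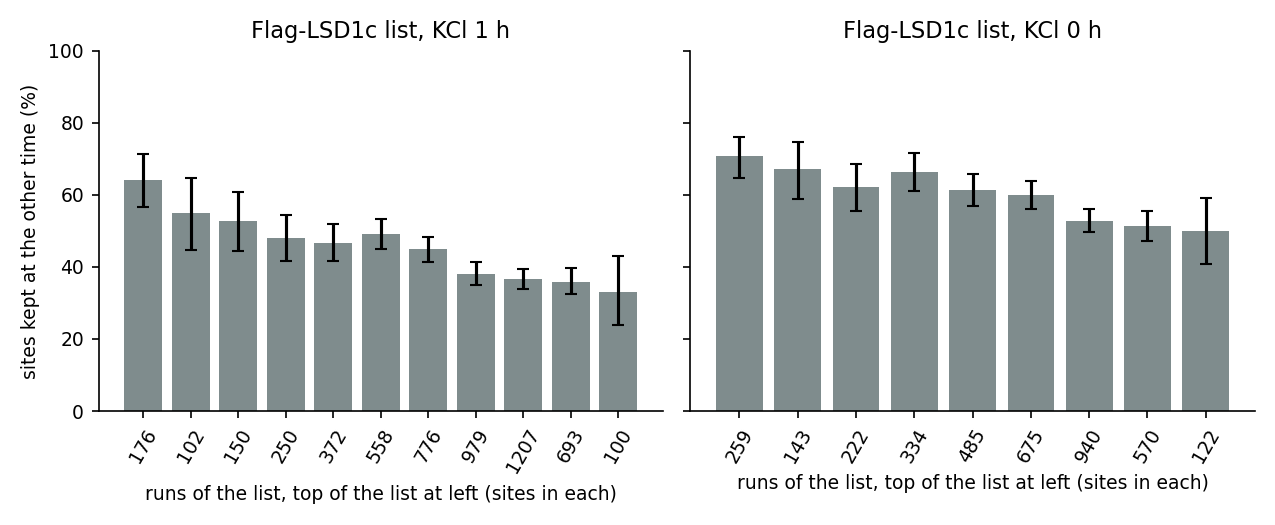
Share of Flag-LSD1c sites kept at the other time, in per cent, for each run of at least 100 sites and for the runs above the first of these pooled, from the top of the list at the left; the numbers under the bars are the sites in each. Error bars are exact intervals at 95%, and the share is 64.2% at the top and 36.7% in the longest run at KCl 1 h, against 70.7% and 52.9% at KCl 0 h.

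The level of a kept site in one list was only weakly related to its level in the other. Across the 2263 pairs the Spearman correlation of levels was 0.18, which describes sites of 2 libraries and not replicates. Of the 552 kept sites in the first of the 5 parts at KCl 1 h, 192 (34.8%) paired with a site of the first part at KCl 0 h. The place in the list differed by more than 50% of the list for 461 pairs, or 20.4%.

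The first-listed positions of each class show what lies at the top, in build mm9. The 3 first new sites were chr17:3084150-3084350, chr1:85274382-85274582 and chr6:38383918-38384118, at places 11, 13 and 19 of the KCl 1 h list. The nearest KCl 0 h site lay 1215, 2445 and 117241 bp away, so the first of them was only just past the limit. The site on chromosome 17 overlapped H3K4me2 at both times, and H3K4me1 and Pol II at KCl 1 h alone. That on chromosome 1 overlapped none of these at either time. The site on chromosome 6 overlapped H3K4me2 at KCl 0 h alone and Pol II at both times.

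The 3 first lost sites were chr11:3027020-3027220, chr17:36368410-36368610 and chr1:87489410-87489610, at places 7, 9 and 16 of the KCl 0 h list. All 3 overlapped H3K4me2 at both times and H3K4me1 at KCl 1 h, and none overlapped Pol II at either time. The 3 first kept sites were chr9:3030079-3030279, chr1:24619855-24620055 and chr16:10975134-10975334, at places 1, 2 and 3 at KCl 1 h and 1, 4 and 3 at KCl 0 h. Each overlapped H3K4me2 and H4K20me1 at both times and had Flag-LSD1n and LSD1 within 1 kb at both times. Positions within 100 kb of the first listed base of a chromosome, such as the first-listed new, lost and kept site, were few: 1 new site, 8 lost sites and 6 kept sites.

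The kept sites that moved furthest up the list were chr2:31830006-31830206, chr16:16358656-16358856 and chr15:102340937-102341137. Their places at KCl 1 h were 186, 107 and 106 of 5366, against 3635, 3537 and 3533 of 3755 at KCl 0 h. All 3 overlapped H3K4me2 at both times. Those that moved furthest down were chr1:36426053-36426253, chr11:100711468-100711668 and chr9:13422548-13422748, at places 5264, 5329 and 4942 at KCl 1 h and 174, 233 and 32 at KCl 0 h. None of these 3 overlapped Pol II at KCl 0 h. Places 3537 and 3533 lie in the same run of 570 sites, so these positions stand out from others of their run only by genome order.

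At rest, new sites already lay in H3K4me2 nearly as often as kept sites, while lost sites did so less often. H3K4me2 at KCl 0 h covered 84.5% (83.1 to 85.7) of new sites, 76.7% (74.5 to 78.7) of lost sites, and 86.9% of kept sites at their KCl 1 h positions or 87.0% at their KCl 0 h positions. In what follows, a share of kept sites is at the KCl 1 h positions unless said otherwise, while lost minus kept always uses the KCl 0 h positions. New minus kept was -2.45 percentage points (-4.35 to -0.53), and lost minus kept was -10.3 points (-12.9 to -7.77). Both lists were also cut to their upper 50% before matching, so that a site with its partner in the lower part counted as new or lost. In these altered classes new minus kept had the other sign, 1.26 points. Lost minus kept was then -2.75 points (-6.08 to 0.68), an interval that holds 0. With the classes of the whole lists, new minus kept averaged -2.04 points over the 5 parts and -1.29 points over the runs. Lost minus kept averaged -10.1 points over the 5 parts and -10.2 points over the runs.

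Fewer sites of every class lay in H3K4me2 at KCl 1 h. The shares were 59.6% of new sites, 56.9% of lost sites and 55.99% of kept sites. New minus kept was 3.57 points (0.87 to 6.27), the opposite sign to KCl 0 h, and lost minus kept was -0.75 points (-4.01 to 2.49). The H3K4me2 list itself was smaller at KCl 1 h, with 15208 regions of a median 837 bp over 18.0 Mb, against 16545 regions of a median 1173 bp over 23.9 Mb at KCl 0 h. Its library held 6990017 tags at KCl 1 h and 9418008 at KCl 0 h. The part of depth in the lower shares was not tested. Among new sites, 5.74% lay in H3K4me2 at KCl 1 h alone, 30.6% at KCl 0 h alone and 53.8% at both times. Among lost sites these shares were 5.97%, 25.7% and 50.9%. In both classes a call at KCl 0 h alone was more common than one at KCl 1 h alone.

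With a margin of 1 kb the gap between the KCl times was smaller, and lost minus kept at KCl 1 h was -7.77 points (-10.4 to -5.20). Within 1 kb of H3K4me2 lay 85.0% of new sites, 77.6% of lost sites and 84.6% of kept sites at KCl 1 h, and 94.4%, 86.1% and 96.7% of them at KCl 0 h. The regions that held sites had a median width at KCl 0 h of 1843 bp for new sites and 1659 bp for lost sites, against 1173 bp over all regions. A wide region holds a site more often by construction, and no baseline for width was taken, so a preference for wide regions was not tested. New sites were found in 15.2% of all H3K4me2 regions at KCl 0 h, lost sites in 7.05% and kept sites in 11.2%. These shares go with the sizes of the classes: 2521 regions for 3103 new sites, 1167 for 1559 lost sites and 1850 for 2263 kept sites.

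**Figure D3:**
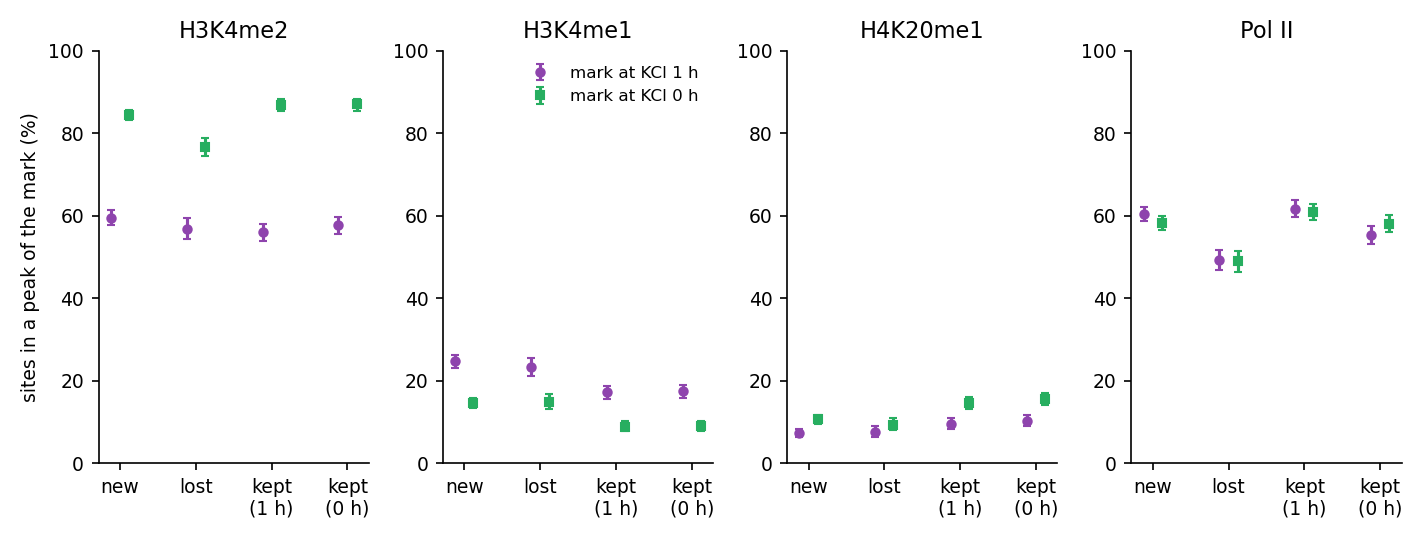
Share of new, lost and kept Flag-LSD1c sites, in per cent, that overlap a peak of H3K4me2, H3K4me1, H4K20me1 or Pol II in the lists labelled LSD1n WT, at KCl 1 h (circles, left) and KCl 0 h (squares, right); H4K20me1 at KCl 1 h is the list of replicate 1, and kept sites are shown at their positions in each Flag list. Error bars are exact intervals at 95%; lost sites are the lowest in Pol II at both times and in H3K4me2 at KCl 0 h, while new sites stand near kept ones there.

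In the whole lists Pol II overlapped fewer lost sites than new or kept ones at both times. It overlapped 60.4% (58.7 to 62.2) of new sites, 49.3% (46.8 to 51.8) of lost sites and 61.7% (59.6 to 63.7) of kept sites at KCl 1 h. The KCl 0 h list overlapped 58.2% of new, 48.9% of lost and 60.9% of kept sites. The 2196 kept sites of the KCl 0 h list had 55.3% at KCl 1 h and 58.1% at KCl 0 h, so the share depended on the list from which kept sites were taken. New minus lost was 11.2 points (8.10 to 14.2) at KCl 1 h and 9.29 points (6.22 to 12.3) at KCl 0 h. New minus kept was -1.26 points (-3.92 to 1.41) at KCl 1 h, an interval that holds 0. It was 5.37 points (1.28 to 9.51), the other sign, with the lists cut to their upper 50% before matching. With the classes of the whole lists it averaged -0.19 points over the 5 parts and 1.22 points over the runs. Lost minus kept was -6.07 points (-9.33 to -2.79) at KCl 1 h and -9.12 points (-12.4 to -5.85) at KCl 0 h. With the lists cut to their upper 50% before matching it was 1.08 points (-3.58 to 5.75) at KCl 1 h. At KCl 0 h it was then -3.49 points (-8.11 to 1.17), and both intervals hold 0. Sites with a partner in the lower part counted as lost in that setting. With the classes of the whole lists, lost minus kept averaged -5.29 points at KCl 1 h and -8.57 points at KCl 0 h over the 5 parts. Over the runs it averaged -5.77 and -8.88 points. At KCl 1 h it was -2.48 points (-5.73 to 0.77) at equal list lengths and -1.36 points (-4.44 to 1.74) when 50% of the site had to overlap, against -4.80 and -5.37 points at KCl 0 h.

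Most sites of each class had the same Pol II call at both times. Of new sites, 10.4% lay in Pol II at KCl 1 h alone, 8.19% at KCl 0 h alone and 50.05% at both times. Of lost sites, 7.76% did so at KCl 1 h alone, 7.44% at KCl 0 h alone and 41.5% at both times. Kept sites of the KCl 1 h list had 8.48%, 7.73% and 53.2%. The genotype named inside all Pol II lists is the opposite of their labels; in the lists labelled LSD1n KO the shares at KCl 1 h were 62.5% of new, 52.4% of lost and 62.2% of kept sites.

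Nearly all new and kept sites were close to Pol II, and lost sites had a long tail far from it. The centre of a Pol II peak lay within 1 kb of 91.5% (90.5 to 92.5) of new sites, 81.9% (79.9 to 83.8) of lost sites and 96.2% (95.3 to 96.9) of kept sites at KCl 1 h. The KCl 0 h values were 88.4%, 79.2% and 95.5%. Pol II was more than 10 kb away from 8.64% of new, 16.2% of lost and 2.87% of kept sites at KCl 0 h. The median distance at KCl 1 h was 138 bp for new, 207 bp for lost and 133 bp for kept sites. By the share within 1 kb, new sites stood between lost and kept ones.

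In the 2193 kept pairs near a Pol II peak of KCl 1 h, the KCl 1 h position was the nearer one in 53.9% (51.8 to 56.0). The median distance was 126 bp from the KCl 1 h position and 163 bp from the KCl 0 h position. Against Pol II of KCl 0 h the KCl 1 h position was nearer in 51.1% (49.0 to 53.2) of 2178 pairs.

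**Figure D4:**
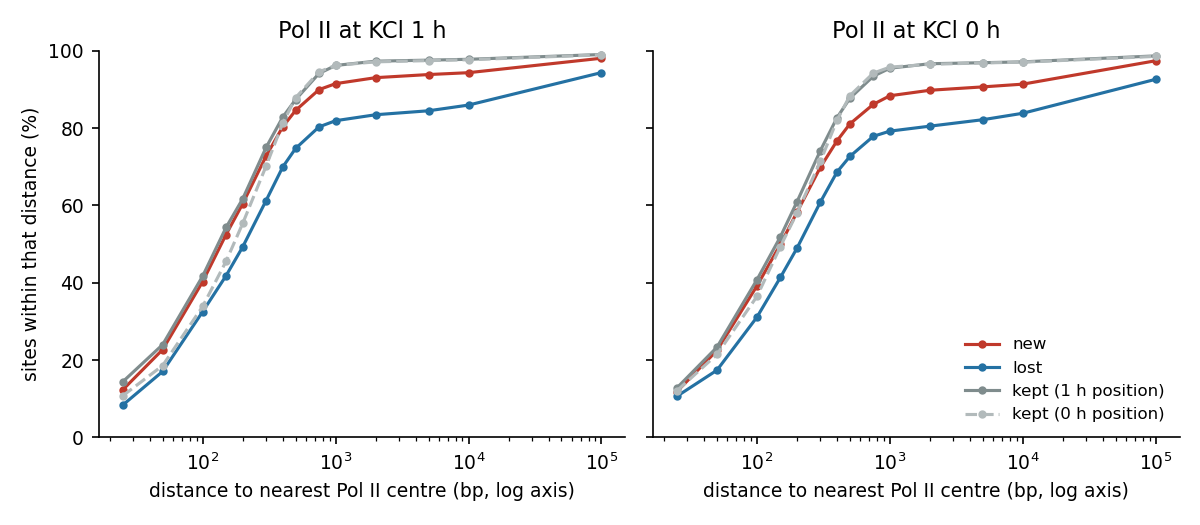
Cumulative share of Flag-LSD1c sites, in per cent, within a given distance in bp (log axis) of the nearest Pol II peak centre at KCl 1 h (left) and KCl 0 h (right), for new, lost and kept sites, the last at their positions in both Flag lists. At 1 kb the curves reach 91.5% for new, 81.9% for lost and 96.2% for kept sites at KCl 1 h, and the order is the same at KCl 0 h.

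H3K4me1 overlapped both new and lost sites more often than kept ones. It overlapped 24.7% (23.2 to 26.2) of new sites, 23.2% (21.1 to 25.4) of lost sites and 17.1% (15.6 to 18.8) of kept sites at KCl 1 h. Its KCl 0 h list overlapped 14.6% of new, 14.9% of lost and 8.88% of kept sites, or 9.02% of kept sites at their KCl 0 h positions. New minus kept was 7.54 points (5.33 to 9.72) at KCl 1 h, and lost minus kept was 5.86 points (3.71 to 8.06) at KCl 0 h. The lists labelled LSD1n KO gave 8.10 points for new minus kept at KCl 1 h and 4.30 points for lost minus kept at KCl 0 h. With the lists labelled LSD1n WT and the Flag lists cut to their upper 50% before matching, which alters the classes, these differences were 1.77 and 1.76 points. With the classes of the whole lists they averaged 6.85 and 5.80 points over the 5 parts, and 4.80 and 4.46 points over the runs. H3K4me1 is itself one of the 8 targets behind the choice of members: with those sites left in, new minus kept at KCl 1 h was 5.28 points, and lost minus kept was 3.61 points at KCl 1 h and 3.82 points at KCl 0 h. With overlap as the rule for kept, lost minus kept was 1.01 points (-1.78 to 3.71) at KCl 1 h and 2.50 points (0.30 to 4.59) at KCl 0 h.

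The H3K4me1 share of new sites went with their place in the list. It was 17.8% (14.6 to 21.4) of the 522 new sites in the first of the 5 parts of the KCl 1 h list and 28.4% (25.01 to 31.9) of the 684 in the last. Kept sites had 15.8% in the first part and 19.5% in the last. Pol II went the other way among new sites, with 70.5% (66.4 to 74.4), 62.6%, 61.8%, 56.5% and 53.5% (49.7 to 57.3) from the first part to the last. Of the kept sites, 66.5% (62.4 to 70.4), 63.99%, 60.8%, 53.7% and 60.9% (55.9 to 65.8) lay in Pol II, so new sites were higher in some parts and lower in others.

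**Figure D5:**
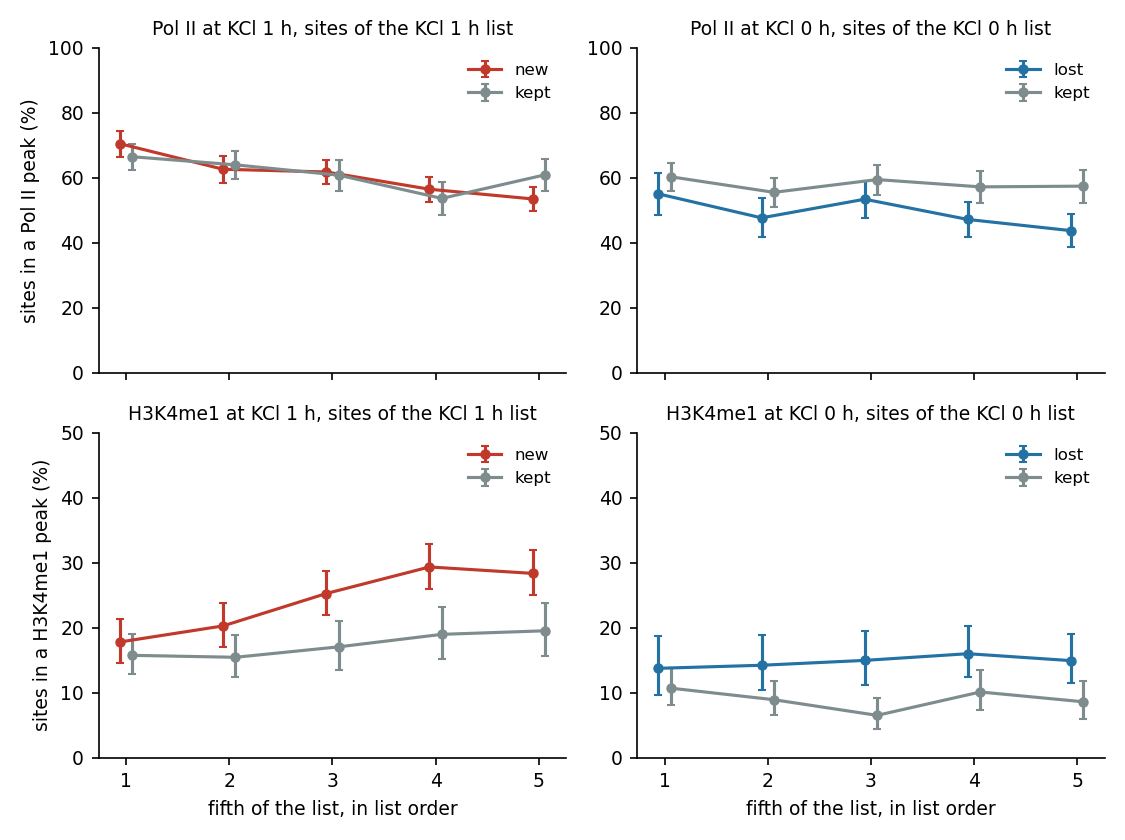
Share of sites in Pol II peaks (upper row) and in H3K4me1 peaks (lower row), in per cent, by 5 equal parts of the list from top (1) to bottom (5): new and kept sites of the KCl 1 h list with marks at KCl 1 h (left), lost and kept sites of the KCl 0 h list with marks at KCl 0 h (right). Error bars are exact intervals at 95%; among new sites the H3K4me1 share is 17.8% at the top and 28.4% at the bottom, and the Pol II share is 70.5% at the top and 53.5% at the bottom.

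Far more sites stood beside H3K4me1 than in it. At KCl 1 h, 49.5% of new, 46.2% of lost and 52.7% of kept sites lay within 1 kb of an H3K4me1 region without touching it, and at KCl 0 h 40.96%, 35.98% and 44.01%. Counted with a margin of 1 kb, lost minus kept at KCl 0 h was -3.05 points, the opposite sign of the overlap, with an interval of -6.33 to 0.23 that holds 0. The value at KCl 1 h was -1.16 points (-4.18 to 1.84). In the lists labelled LSD1n KO, lost minus kept with the margin was -1.09 points (-3.93 to 1.73) at KCl 1 h and 3.84 points (0.59 to 7.09) at KCl 0 h, so the sign with the margin depended on the list.

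H4K20me1 overlapped few sites and was most common at kept ones. At KCl 1 h the mean over its 2 lists was 5.58% ± 2.32 of new sites, 5.81% ± 2.40 of lost sites and 7.91% ± 2.31 of kept sites (SD, n = 2 lists). The lists differ widely in size, with 28453 regions in replicate 1 and 2844 in replicate 2, so the SD is large beside the difference of the classes. Within each list the order was the same: new minus kept was -2.34 points in the list of replicate 2 and -2.33 points in that of replicate 1. The KCl 0 h list held 10.6% (9.54 to 11.7) of new, 9.36% (7.96 to 10.9) of lost and 14.6% (13.2 to 16.1) of kept sites, or 15.5% of kept sites at their KCl 0 h positions. Lost minus kept was -6.12 points (-8.23 to -3.96), and -22.0 points when a margin of 1 kb was allowed. Within 1 kb of H4K20me1 at KCl 0 h lay 43.9% of new, 34.8% of lost and 56.3% of kept sites.

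The marks were also counted together. H3K4me2 and Pol II without H3K4me1 was the most common state at KCl 0 h, at 44.0% of new, 34.6% of lost and 48.4% of kept sites. H3K4me2 alone held 28.2% of new, 30.3% of lost and 30.8% of kept sites. None of the 3 overlapped 6.25% (5.43 to 7.16) of new, 13.0% (11.4 to 14.8) of lost and 4.33% (3.53 to 5.25) of kept sites at KCl 0 h. At KCl 1 h none of the 3 overlapped 13.1% of new, 19.4% of lost and 15.0% of kept sites, or 16.6% of kept sites at their KCl 0 h positions. Lost sites were the highest at both times, while new and kept sites changed order.

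A small group of lost sites had none of the 3 marks within 1 kb at either time. They were 87 of 1559 lost sites, or 5.58% (4.49 to 6.84), against 43 of 3103 new sites, or 1.39% (1.00 to 1.86), and 14 of 2263 kept sites, or 0.62% (0.34 to 1.04). They were spread over the list, at 6.88% of lost sites in the first of the 5 parts and 7.07% in the last. Merged over 100 kb they formed 60 places, of which chromosome 5 held the most sites with 19. Of the 87, 28.7% (19.5 to 39.4) had a Flag-LSD1n site within 1 kb at KCl 0 h, where 7.95% of all lost sites had one. Of the equally distant new sites 0 of 43 had one, which allows a share of up to 8.22% by the exact interval, and of the 14 kept ones 11 had one at their KCl 1 h positions and 12 at their KCl 0 h positions. The other LSD1 lists went the other way at the 87 lost sites. Flag-LSD1n at KCl 1 h lay within 1 kb of 10.3% of them, against 35.6% of all lost sites. LSD1 lay within 1 kb of 18.4% at KCl 0 h and 21.8% at KCl 1 h, against 71.4% and 62.9% of all lost sites.

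LSD1 precipitated from wild type neurons was counted at the same sites; its lists did not decide which sites were kept, but LSD1 is one of the 8 targets behind the choice of members. At KCl 1 h it overlapped 42.3% (40.6 to 44.1) of new, 26.9% (24.8 to 29.2) of lost and 43.7% (41.6 to 45.7) of kept sites. The KCl 0 h list overlapped 18.3% of new, 21.6% of lost and 19.4% of kept sites. New minus lost was 15.4 points (12.5 to 18.2) at KCl 1 h and -3.34 points (-5.86 to -0.88) at KCl 0 h. These shares too depended on the list from which kept sites were taken: those of the KCl 0 h list had 34.7% at KCl 1 h and 21.6% at KCl 0 h. Lost minus kept was -7.76 points (-10.7 to -4.73) at KCl 1 h, and new minus kept was -1.34 points (-4.06 to 1.36). At KCl 0 h lost minus kept was 0.03 points (-2.66 to 2.76) and new minus kept was -1.08 points (-3.24 to 1.05), and both intervals hold 0. With a margin of 1 kb, LSD1 was present at KCl 1 h alone at 17.9% of new and 11.7% of lost sites, and at KCl 0 h alone at 13.8% of new and 20.3% of lost sites. It was present at both times at 56.2% of new and 51.1% of lost sites.

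Flag-LSD1n was more often near kept sites than near new or lost ones. Within 1 kb of Flag-LSD1n at KCl 1 h lay 40.3% of new, 35.6% of lost and 60.4% of kept sites. Its KCl 0 h list has only 940 sites and gave shares of 5.22%, 7.95% and 11.4%. By overlap, new minus kept was -11.1 points (-13.6 to -8.66) at KCl 1 h, while new minus lost was 0.59 points (-1.98 to 3.09). H3K36me3, the mark of transcribed gene bodies, overlapped few sites of any class: 1.06% of new, 1.60% of lost and 2.43% of kept sites at KCl 1 h.

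The kept share under the same rule was set beside that of the other LSD1 experiments. At KCl 1 h, 42.2% (40.8 to 43.5) of Flag-LSD1c sites, 10.1% (9.17 to 11.0) of Flag-LSD1n sites and 52.8% (52.1 to 53.5) of LSD1 sites were kept. In the KCl 0 h lists it was 58.5% (56.9 to 60.1) for Flag-LSD1c, 56.4% (52.7 to 60.03) for Flag-LSD1n and 48.1% (47.4 to 48.7) for LSD1. In the whole deposited lists, 86.8% of Flag-LSD1n sites and 47.0% of LSD1 sites at KCl 1 h had no neighbour at KCl 0 h, and 38.4% of Flag-LSD1n sites and 52.0% of LSD1 sites at KCl 0 h had none at KCl 1 h. The Flag-LSD1n list holds 4265 sites at KCl 1 h and 734 at KCl 0 h, and the LSD1 list 18189 at KCl 1 h and 22237 at KCl 0 h, all by the same filters, so the shares come from lists of unequal length.

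Every chromosome from 1 to 19 had more Flag-LSD1c sites at KCl 1 h than at KCl 0 h. The ratio ran from 1.26 (0.99 to 1.59) on chromosome 16, an interval that holds 1, to 1.72 (1.42 to 2.10) on chromosome 10. The kept share of the KCl 0 h list ran from 50.3% (42.7 to 57.8) on chromosome 17 to 69.0% (59.7 to 77.2) on chromosome 18.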

How the data were processed

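The authors deposited 27 peak lists, 1 library each. Per the submitters' processing notes, Bowtie, HOMER and mm9 were used, and versions are not given in the sources used here. Per the file headers, Flag, LSD1 and Pol II sites were called at 200 bp with a false discovery rate of 0.001, at least 500 bp apart and 4-fold above the surrounding 10 kb. Histone regions were stitched from 500 bp peaks that had to lie 1250 bp apart. No control library is named. The deposited score is 1 for every site. The deposited starts and ends are positions in bp, and 1 was added to each start, so that the positions given here count from 1.

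Distances and overlaps of at least 1 bp were taken from these positions (Python 3.11.15; numpy 2.4.6; scipy 1.17.1; matplotlib 3.10.9), after a test on simulated lists with planted overlaps. The members, lists and measures were chosen with earlier results of these data known. Named positions are the 3 first-listed sites of each class and the 3 kept sites with the largest gain and the largest loss of place. Pol II lists were grouped by label. Planned counts at genes, motifs and cell type markers were not run, as no mm9 genome or annotation was used here. Expression and nascent RNA libraries of the series were left aside.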

Additional observations from a re-analysis of the deposited data

Results flagged for a closer look

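The length of the Flag-LSD1c list and that of the LSD1 list from wild type neurons differed between KCl times in opposite directions: the log2 ratio of KCl 1 h over KCl 0 h was 0.52 for Flag-LSD1c and -0.29 for LSD1. Each rests on 1 library per time, and the difference between them was not tested. Before filtering, the LSD1 lists held 18457 sites from 19266695 tags at KCl 1 h and 22663 from 24377237 tags at KCl 0 h. A further LSD1 list at KCl 0 h, labelled LSD1n WT and with another title prefix, held 13400 sites from 17993780 tags. That is fewer than at KCl 1 h, so the direction for LSD1 depends on which KCl 0 h list is taken.

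Sites on the sex chromosomes, which were left out of the classes, went against the autosomes. Chromosome X had 33 Flag-LSD1c sites at KCl 1 h and 66 at KCl 0 h, a ratio of 0.50 (0.32 to 0.77). Of these, 6 at each time overlapped peaks of all 8 targets, and such sites are left out of the autosomal counts. Chromosome Y had 10 sites at KCl 1 h and 30 at KCl 0 h, a ratio of 0.33 (0.15 to 0.70). Without a neighbour at the other time were 13 of the 33 sites on chromosome X and 2 of the 10 on chromosome Y at KCl 1 h, where the whole list has 56.9%, and 44 of the 66 on chromosome X and 22 of the 30 on chromosome Y at KCl 0 h, where the whole list has 41.5%. The numbers of sites are all above the 3 that a count of 0 allows, but the 2 sites without a neighbour on chromosome Y at KCl 1 h are not.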

How the results depend on the processing

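Of 135 alternative values of the main comparisons 5 had the other sign, and of 130 values of the other comparisons 8 had. The 135 include kept shares and the 130 include numbers of sites, neither of which can change sign. Some alternatives also left a value as it was: with equal numbers of mark peaks, lost minus kept for Pol II at KCl 0 h stayed at -9.12 points. New minus kept for Pol II at KCl 1 h gave 4 of the 5 values with the other sign in the main comparisons. It was 0.02 at equal lengths, 0.28 in the lists labelled LSD1n KO, 1.22 averaged over the runs and 5.37 in the upper 50% of each list. The log2 ratio of the lists was 0.75 by share of tags and 0.27 by tags in sites. The kept share at KCl 1 h and KCl 0 h was 22.9% and 32.7% with overlap as the rule, 40.2% and 56.1% within 500 bp, 44.8% and 44.5% at equal lengths, and 28.5% and 40.1% in the upper 50% of each list, which by construction drops partners in the lower part. In that upper part, a site whose partner was dropped counts as new or lost. New minus kept there was 1.77 points for H3K4me1, -3.87 for H4K20me1 and, with changed sign, 5.37 for Pol II at KCl 1 h. At KCl 0 h it was 1.26 for H3K4me2 and 2.84 for Pol II, both with changed sign. Lost minus kept there was 1.76 for H3K4me1, -2.75 for H3K4me2 and -3.49 for Pol II at KCl 0 h, and 1.08 with changed sign for Pol II at KCl 1 h. With overlap as the rule for kept, new minus kept at KCl 1 h was 4.13 for H3K4me1 and -10.8 for Pol II, and lost minus kept at KCl 0 h was 2.50 for H3K4me1, -5.03 for H3K4me2, -3.76 for H4K20me1 and -24.0 for Pol II. With a margin of 1 kb around the mark, new minus kept at KCl 1 h was 4.32 for H3K4me1, 0.40 for H3K4me2, -6.97 for H4K20me1 and -4.67 for Pol II. Lost minus kept with it was -22.0 for H4K20me1, -16.4 for Pol II and, with changed sign, -3.05 for H3K4me1 at KCl 0 h and -1.16 at KCl 1 h. Lost minus kept for Pol II at KCl 0 h was -4.80 at equal lengths and -5.37 when 50% of the site had to overlap. With the sites of all 8 targets left in, new minus kept at KCl 1 h was 5.28 for H3K4me1 and -4.97 for H4K20me1. Averaged over the runs, an alternative chosen after seeing the data, new minus kept was 4.80 for H3K4me1 at KCl 1 h and, with changed sign, 1.07 for Pol II at KCl 0 h. Matching to the unfiltered other list, also chosen after seeing the data, gave 3102 new and 1558 lost sites. Leaving out either H4K20me1 list at KCl 1 h gave -2.34 to -2.33 for new minus kept and -2.83 to -2.45 for lost minus kept. Beyond what the construction of an alternative shows, the cause was not tested. No paired analysis was possible because each Flag-LSD1c group holds 1 library. Sites of about the threshold number of tags and 1 library per time limit all of these values.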
